A study of Homo sapiens with 3 samples.

Results

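Chromosome 8 carried 1322 of the 23641 peaks of 8-oxo-7,8-dihydro-2'-deoxyguanosine (8-oxodG) in the deposited list, 5.59% of all. Every row placed on this chromosome in the human genome build hg18 was taken, on both arms. The short arm, 8p, held 453 peaks and the long arm, 8q, 869. The cells were MCF10A, an established human breast epithelial cell line that the labels call normal, held in G0, where cells have left the cycle. The labels name 1 antibody against 8-oxodG, culture in a DMEM-F12 mixture with 5% horse serum for 48 h, no treatment and no second condition. DNA immunoprecipitation sequencing, in which sonicated genomic DNA is pulled down with the antibody and sequenced, was done on 3 samples from 2 experiments, and 1 peak list stands for all of them. No value below therefore has a replicate error, and no test over samples could be made.

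8-oxodG forms when guanine in DNA is oxidised. The glycosylase OGG1 removes it, and base excision repair fills the site. If it is left in place, it can pair with adenine and give rise to a change of G to T. Chromosome 8 is best known in breast cancer for the oncogene MYC in 8q24.21 and for FGFR1, near the border of 8p12 and 8p11.23, both of which are often amplified in tumours. It also holds NEIL2 (8p23.1), a glycosylase for oxidised bases, and POLB (8p11.21), the main gap-filling polymerase of base excision repair. Extra copies of the MYC region have been described in MCF10A. Genes are named here by band as background. No gene annotation of hg18 was used, so no peak was assigned to a gene, and no bases of this chromosome are printed.

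The 4 quantities reported for each peak are its width, its pileup (the number of fragments stacked at the summit), its fold enrichment as given by the authors, and the background at the summit. The background is the number of fragments expected there, derived as (pileup + 1) / fold enrichment − 1. Density is the number of peak midpoints per Mb of sequenced contig. Intervals in brackets are exact 95% intervals (Poisson for a density, conditional binomial for a ratio, order statistics for a median). They cover counting error only and are too narrow where peaks cluster.

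Peaks were slightly denser on chromosome 8 than elsewhere, and the background beneath them was much higher. Density was 9.26 per Mb (8.77 to 9.77), against 8.30 (8.19 to 8.41) on the other 22 chromosomes, a ratio of 1.12 (1.06 to 1.18). This placed chromosome 8 at rank 7 of 23. The median background at the summit was 1.42 fragments, against 0.975 elsewhere, or 1.45 times as high. The median pileup was 32 fragments (30 to 33) against 25, or 1.28 times as high. Neither the width nor the fold enrichment followed. The median width was 453 bp (445 to 460) against 452 bp, and the median fold enrichment was 11.8 (11.4 to 12.3) against 11.7. Peaks on chromosome 8 thus stood taller over a higher base, with about the same enrichment over that base. When the number of peaks in each set was divided by its median background, the density ratio turned from 1.12 to 0.769.

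Chromosomes of similar sequenced length did not share this background. The nearest in length were X, 10 and 11, each with a median of 0.944 fragments. Their densities were 6.85 (6.44 to 7.28), 8.73 (8.23 to 9.25) and 8.22 (7.74 to 8.73) peaks per Mb, and their median pileups 23, 26 and 23. The chromosomes that came close in background were 20 (1.42), 16 (1.38) and 19 (1.35). Those 3 were dense as well, at 14.07, 14.02 and 25.6 per Mb. Chromosome 19 was added after its values were seen. Chromosome 8 combined a background of that height with a density nearer to that of chromosome 10.

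**Figure D1:**
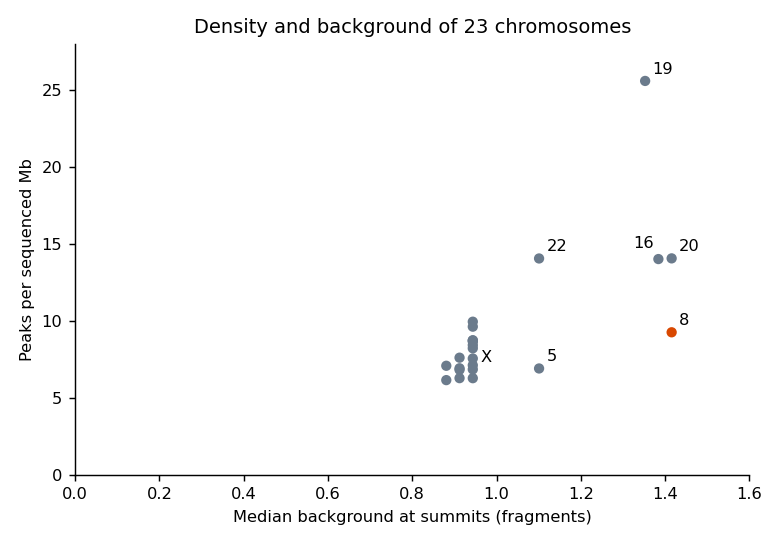
Peak density (peaks per sequenced Mb, vertical axis) against the median background at summits (fragments, horizontal axis), 1 point per chromosome. Chromosome 8 (orange, 9.26 per Mb and 1.42 fragments) lies far to the right of most chromosomes but below 16, 19 and 20, which have a similar background.

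The whole distribution of background was shifted, not its middle alone. Quartiles on chromosome 8 were 1.10 and 2.04 fragments, against 0.723 and 1.42 on the other chromosomes. The top 25% of the list by background took in 648 of the 1322 peaks on chromosome 8, or 49.0%. The share was 44.8% on chromosome 20, 43.4% on 16 and 17.9% on X. At the other extreme, the lowest background in the list, 0.460 fragments (values within 0.0005 counted as equal), was shared by 902 peaks on other chromosomes (4.04%) but by 2 on chromosome 8 (0.151%). Low peaks were fewer too. A pileup of 16 or less, the lower quartile of the list, was seen in 172 peaks (13.01%) against 26.1% elsewhere, and a pileup of at least 100 in 83 (6.28%) against 2.34%. The lowest fold enrichment listed was 7.001, so over a higher background a peak needs more fragments to be listed. How much of the difference in pileup this makes was not tested. Background values were coarse. On chromosome 8, 95.7% of them were whole multiples of 0.0315 fragments within 0.001, and 59.8% were multiples of 5 such steps (0.157), so medians can coincide exactly.

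Copy number was not measured, and what control the peak caller used is not given in the sources here. More copies of a region in the libraries and more 8-oxodG per copy cannot be told apart in these data.

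Bands that stain dark with Giemsa, which are usually gene-poor and late to replicate, were less sparse in peaks on chromosome 8 than elsewhere. In gpos75 and gpos100, the darkest classes, density was 8.91 (7.83 to 10.09) and 7.27 (6.20 to 8.47) peaks per Mb. In the same classes on other chromosomes it was 6.33 and 5.14, so chromosome 8 was 1.41 times as high in both. The gpos75 bands were uneven, at 13.5 in 8p23.2, 11.7 in 8q24.23 and 9.05 in 8p12, but 5.42 to 6.67 in 8q11.22, 8q21.13 and 8q23.1. Giemsa-negative bands had 10.75 against 9.49 (1.13 times), and gpos50 bands 8.36 against 8.72 (0.959 times). The gpos25 class went the other way. Its 2 bands on chromosome 8, 8p11.22 and 8q22.2, held 17 peaks in 2.9 Mb, or 5.86 per Mb (3.41 to 9.39), against 11.24 (10.78 to 11.70) elsewhere, 0.522 times as high. The ratio of Giemsa-negative to darkest bands was 1.32 (1.16 to 1.49) on chromosome 8 and 1.68 (1.62 to 1.73) on the others. The dense chromosomes 16, 19 and 20 were also left out, a choice made after seeing the data. Density was then 1.23 times as high in Giemsa-negative bands, 1.02 in gpos50, 0.660 in gpos25 and 1.45 in gpos75 and gpos100. The ratio of Giemsa-negative to darkest bands was 1.58 on the remaining chromosomes. Against all other chromosomes, the background was higher in 4 of the 5 classes. It was 1.57 fragments in Giemsa-negative bands (1.52 times other chromosomes), 1.35 in gpos50 (1.43 times), 1.42 in gpos75 (1.61 times) and 1.32 in gpos100 (1.62 times). In gpos25 it was 1.16 (0.944 to 1.42) against 1.10, or 1.06 times, and the interval includes the value elsewhere.

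Along the chromosome, no window of 1 Mb with at least 50% sequence was empty of peaks. Windows without a peak made up 0.774% of the 2844 in the list, and chromosome 8 had 0 of 143. The mean was 9.22 ± 5.41 peaks per window (SD over 143 windows), against 8.22 ± 6.38 on other chromosomes. The variance-to-mean ratio of the counts was 3.17, at rank 9 of 23 from the most even. The other 22 chromosomes, each taken alone, had a median ratio of 3.40, with 1.76 the lowest and 8.48 the highest. Windows with at least 2 times the mean of all windows numbered 13 of 143, or 9.09%, against 9% of all windows, so dense windows were about as common here as in the whole list. The background was above the median of the other chromosomes (0.975 fragments) in 134 of 143 windows, or 93.7%, compared with 1080 of the 2679 windows with a peak elsewhere, or 40.3%.

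**Figure D2:**
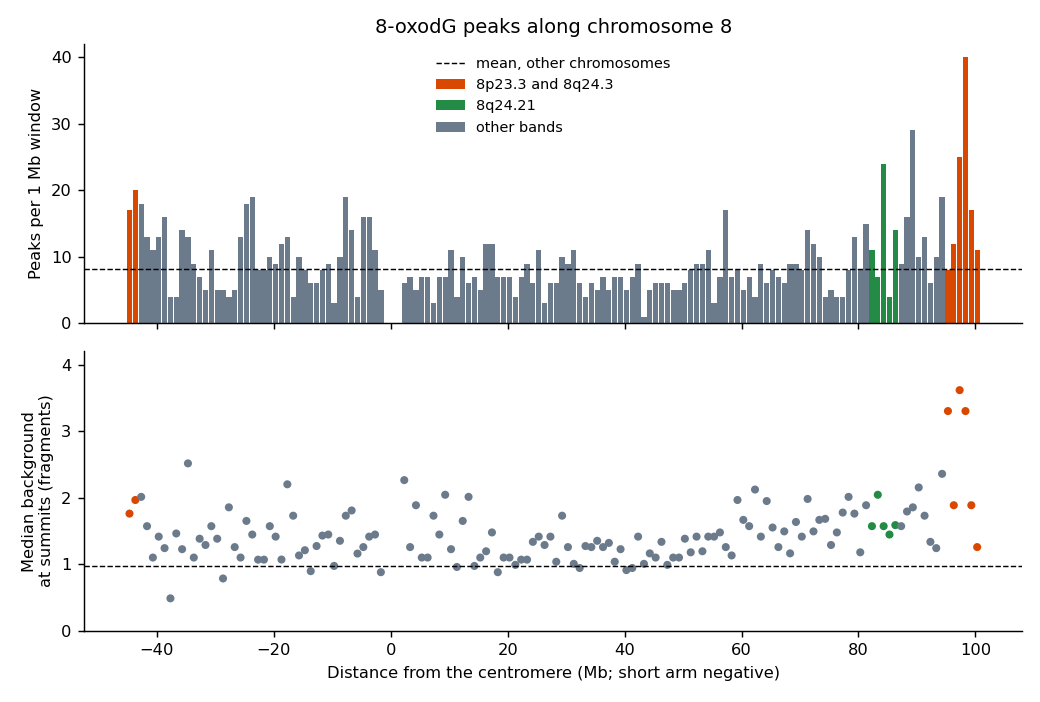
Upper panel, peaks per window of 1 Mb along chromosome 8 by distance from the centromere (Mb, short arm negative), with 8p23.3 and 8q24.3 in orange, 8q24.21 in green and the mean of windows on other chromosomes dashed. Lower panel, the median background of the peaks in each window (fragments), with the median of other chromosomes dashed. The highest counts (40, 29, 25 and 24) all lie on distal 8q, while the background is above the dashed line in 134 of 143 windows.

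The 10 windows of most peaks lay at the end of 8p, in 8p21.3, in 8p12 and on distal 8q. The window from 143 to 144 Mb in 8q24.3 had 40 peaks, that from 134 to 135 Mb in 8q24.22 had 29, that from 142 to 143 Mb in 8q24.3 had 25, and that from 129 to 130 Mb in 8q24.21 had 24. The others were the windows starting at 1 Mb in 8p23.3 (20 peaks), at 37 Mb in 8p12, 21 Mb in 8p21.3 and 139 Mb in 8q24.23 (19 each), and at 20 Mb in 8p21.3 and 2 Mb in 8p23.2 (18 each). The background in these windows differed widely. It was 3.62 fragments in the window at 142 Mb and 3.30 in that at 143 Mb, but 1.45 in that at 21 Mb and 1.57 in that at 129 Mb. The window of fewest peaks, with 1, started at 88 Mb in 8q21.3 and was picked out after its value was seen. Across windows, which share libraries and sequence context with their neighbours, the number of peaks rose moderately with the background (Spearman's rho = 0.347, n = 143) and the median fold enrichment hardly (rho = 0.0581).

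The short arm was denser than the long arm, at 10.4 peaks per Mb (9.44 to 11.4) against 8.77 (8.20 to 9.38), an 8q to 8p ratio of 0.846 (0.754 to 0.9496). Without 8p23.3 and 8q24.3 it was 0.816. The background was similar in both arms, at 1.42 fragments on 8p (1.32 to 1.45) and 1.48 on 8q (1.42 to 1.57). On 8q, density and background were higher in more distal segments, which were drawn after the values by band were known. From 8q11.21 to 8q22.2, a stretch of 53.4 Mb, density was 6.84 per Mb and the background 1.26 fragments. From 8q22.3 to 8q24.12 they were 7.94 and 1.53, from 8q24.13 to 8q24.23 they were 12.3 and 1.73, and in 8q24.3 they were 18.8 and 2.83. The median pileup rose along the same 4 segments, from 25 to 30.5, 39 and 52 fragments. The rise was not steady on a finer scale. By distance to the end of 8q, there were 142 peaks in the 10 Mb from 10 to 20 Mb but 56 in the 5 Mb from 5 to 10 Mb, a lower density, and the 6 peaks of pericentromeric 8q11.1 had a median background of 2.26 fragments. On 8p, density fell inward from 18.6 per Mb in 8p23.3 to 13.5 in 8p23.2, 9.84 in 8p23.1 and 6.09 in 8p22, and was 13.3 in the next band, 8p21.3. From 8p21.3 to 8p11.21, next to the centromere, it had 10.6 peaks per Mb over a background of 1.42, and from 8p23.2 to 8p22 it had 9.28 over 1.32.

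Other chromosome arms also gained peaks and background toward their ends, so 8q was set beside them at equal distances. At 40 Mb or more from its end, 8q had 1.38 times the background of other long arms (1.26 against 0.912 fragments). The ratio was 1.61 at 20 to 40 Mb, 1.6 at 10 to 20 Mb, 1.57 at 5 to 10 Mb and 2.24 in the last 5 Mb (2.75 against 1.23 fragments). Density did not follow the background step by step. At these distances, in the same order, it was 1.13, 1.00, 1.39, 0.865 and 1.19 times that of other long arms. On 8p the background was 1.15 times that of other short arms at 5 to 10 Mb from the end, and 1.45 to 1.5 times at every other distance. At 40 Mb or more from its end, 8p had 12.1 peaks per Mb against 6.60 on other short arms, from 48 peaks in 3.96 Mb. These are not like places. On 8p the class is the part toward the centromere, while on other short arms it spans 270 Mb. The band at the centromere, 8p11.1, held 3 peaks, or 3.96 per Mb.

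**Figure D3:**
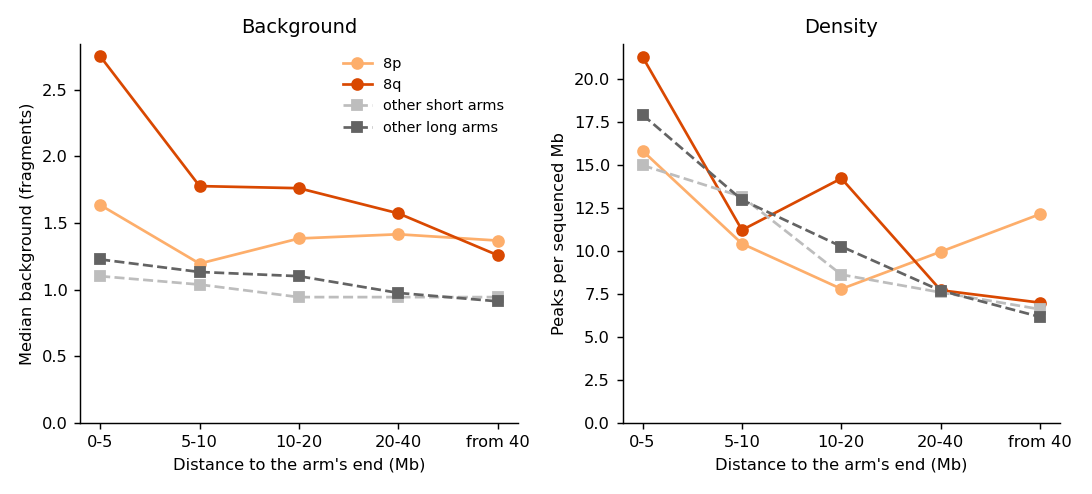
Median background at summits (fragments, left) and peak density (peaks per sequenced Mb, right) by distance to the arm's end in Mb, for 8p and 8q (orange, circles) and for the pooled short and long arms of the other chromosomes (grey, squares). The background of 8q stays above that of other long arms at every distance. Its density is about equal to theirs at 20 to 40 Mb, lower at 5 to 10 Mb and higher at the other distances.

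Of the 40 bands of chromosome 8, 38 are stained and 2 are pericentromeric. Density was above that of the whole list, 8.35 per Mb, in 18 of the 38. The background was above the median of the list in 36, the pileup in 29, the fold enrichment in 20 and the width in 14. The values of the list are taken over sequence or peaks, not over bands. How many bands of other chromosomes exceed them was not counted, so these counts only describe chromosome 8. The densest bands were 8q24.3 (18.8 per Mb, 15.5 to 22.6), 8p23.3 (18.6, 13.4 to 25.3), 8q24.22 (15.8, 12.5 to 19.7), 8p11.21 (13.9, 10.2 to 18.6), 8p23.2 (13.5, 10.1 to 17.6) and 8p21.3 (13.3, 10.1 to 17.2). The intervals of these 6 bands overlap their neighbours in this order. Of the stained bands, 8q21.12 was the sparsest, with 8 peaks (4.44 per Mb, 1.92 to 8.76), before 8q24.12 (4.85, 2.77 to 7.87) and 8p11.22 (5.00, from 2 peaks). Among 681 stained bands of all chromosomes with at least 10 peaks, 8q24.3 had the highest median background and the highest median pileup, 8q24.13 ranked 3 by background (1.89 fragments), 8p23.3 ranked 5 and 8q24.22 ranked 6. Across the 38 bands, density rose with background (Spearman's rho = 0.652), as a description of bands that share libraries and, with their neighbours, sequence context.

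**Figure D4:**
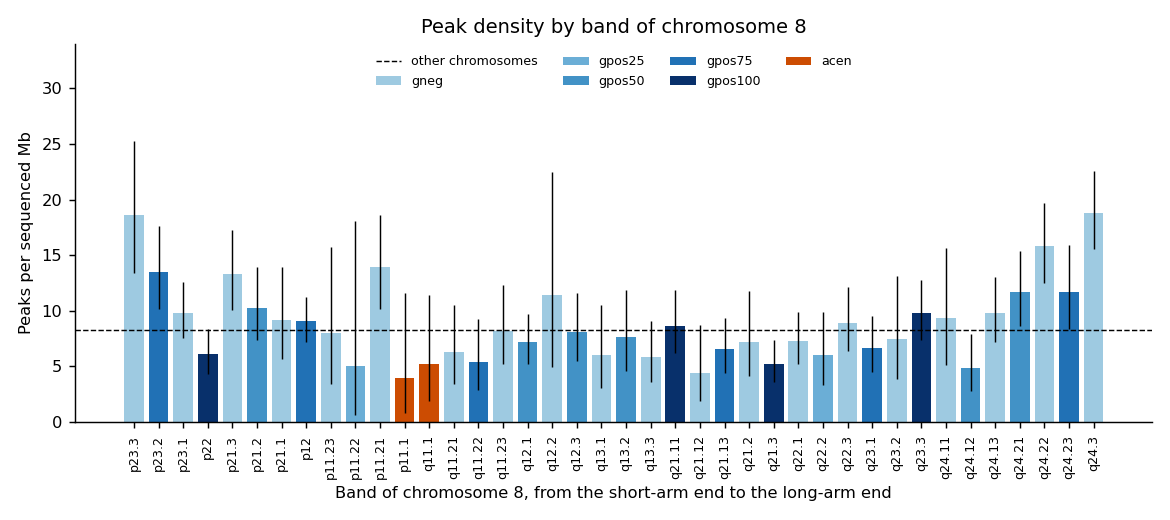
Peak density (peaks per sequenced Mb) in the 40 bands of chromosome 8 in chromosome order, coloured by Giemsa class, with exact 95% Poisson intervals and the density of other chromosomes dashed. 8p23.3 and 8q24.3 at the ends reach 18.6 and 18.8 per Mb, and 8q24.22 reaches 15.8.

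Groups of bands chosen by the genes they carry showed a mixed picture against the chromosome's median band, at 8.16 peaks per Mb and 1.34 fragments of background. They were picked by name from general knowledge and need not cover every such gene. By definition, as many of the 38 stained bands lie above their median as below it, so these counts are only a description. Both bands picked for oxidative damage repair genes lay above the median, 8p11.21 with POLB at 13.9 per Mb and 8p23.1 with NEIL2 at 9.84. The band 8p23.1 also holds the defensin cluster and copy-variable repeats, to which reads may map poorly. Of 6 bands picked for other genome maintenance genes, 4 lay above the median. These were 8q24.3 (18.8, RECQL4, a helicase), 8q24.11 (9.33, RAD21, a subunit of cohesin), 8p12 (9.05, WRN, a helicase) and 8q22.3 (8.89, RRM2B, a subunit of ribonucleotide reductase). Below it were 8q11.21 (6.25, PRKDC, a kinase of end joining) and 8q21.3 (5.24, NBN, part of the complex that senses double-strand breaks). The bands of the very long genes CSMD1 and CSMD3, both dark, lay above the median, 8p23.2 at 13.5 and 8q23.3 at 9.82. Of the bands of breast cancer amplicons, 8q24.21 lay above it at 11.7 and 8p11.23 just below at 8.00, where 8 peaks give an interval of 3.45 to 15.8. The latter was taken for FGFR1, but with the band borders of hg18 that gene may fall in 8p12, which lay above the median. The median background of these lists was 1.40, 1.41, 1.44 and 1.63 fragments, in the order given.

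The MYC band 8q24.21 held 49 peaks in 4.2 Mb. Its density of 11.7 per Mb (8.63 to 15.4) was 1.35 times that of inner chromosome 8 (0.994 to 1.80), by which are meant all bands but 8p23.3, 8q24.21, 8q24.3 and the pericentromeric ones (1107 peaks, 8.63 per Mb). The interval of this ratio includes 1. Against other bands of its own class, gpos50, the ratio was 1.52 (1.08 to 2.12). Nearby on distal 8q, 8q24.22 was denser at 15.8 per Mb, 8q24.23 was alike at 11.7, and 8q24.13 was sparser at 9.79. The background was higher in each of these, at 1.76, 1.73 and 1.89 fragments. In 8q24.21 the background was 1.57 fragments (1.11 times inner chromosome 8) and the pileup 39 (1.34 times). The width was 436 bp (0.984 times) and the fold enrichment 12.2 (1.04 times). Peaks at least 1 kb wide, 5.56% of the list, were 2 of 49 here (4.08%), and none was in the top hundredth of the list by fold enrichment.

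The peaks of 8q24.21 were unevenly spread. By windows of 1 Mb, the first 0.7 Mb of the band had 8 peaks, the window from 128 Mb had 7, that from 129 Mb had 24, that from 130 Mb had 4, and the last 0.5 Mb had 6. Without the window from 129 Mb the ratio to inner chromosome 8 fell to 0.905 (0.583 to 1.34). That window was left out because it had the most peaks, so the ratio had to fall, and inner chromosome 8 kept its own dense windows. The interval overlaps that of the whole band, 0.994 to 1.80. Whether the band exceeds inner chromosome 8 outside that window cannot be decided from this. The stretch of 0.75 Mb with most peaks (chromosome 8, 129050001 to 129800000) held 22 of the 49, or 29.3 per Mb, against 7.83 per Mb in the rest of the band. The background was not higher in it, at 1.57 against 1.64 fragments, while the pileup was 41.5 against 37. The peaks of highest fold enrichment in the band were at 129079740 to 129080395 (pileup 147, fold 42.1, background 2.52), 128831248 to 128831853 (115, 38.5 and 2.01), 129663218 to 129663812 (90, 33.3 and 1.73), 129728929 to 129729684 (123, 33.2 and 2.74) and 127998205 to 127998697 (78, 31.1 and 1.54). Of these 5, 3 lay in the dense stretch, which was chosen after its values were seen.

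The end of the short arm, 8p23.3, held 41 peaks in 2.2 Mb, or 18.6 per Mb, 2.16 times inner chromosome 8 (1.54 to 2.95). Among peaks of at least the median fold of the list, the ratio was 1.66, and its interval of 0.941 to 2.71 includes 1. Its peaks were spread evenly, with 17 in the first Mb, 20 in the second and 4 in the last 0.2 Mb, and without the second Mb the ratio was 2.03. The background was 1.76 fragments (1.42 to 2.74), 1.24 times inner chromosome 8. The pileup was 33 (26 to 43), 1.14 times, and the fold enrichment 10.8 (8.81 to 12.3), 0.921 times. These intervals reach or include the medians of inner chromosome 8, which were 1.42 fragments, 29 and 11.8. Wide peaks were common. Of the 41 peaks, 8 were at least 1 kb wide (19.5%), against 2.98% in inner chromosome 8, and peaks covered 1.41% of the sequence against 0.420%. In the outermost stained bands of other chromosomes, 13.9% of peaks were that wide, and peaks covered 1.06%. The widest peaks of chromosome 8 lay in 8p23.3, 3452 bp at 1822867 to 1826318 and 2905 bp at 1506200 to 1509104. Their pileups were 58 and 57, above the chromosome's median of 32, with folds of 11.25 and 12.1, near its median of 11.8, and backgrounds of 4.25 and 3.77. The strongest peak of chromosome 8 was also here, at 556498 to 557200, with a pileup of 176, a fold enrichment of 64.1 and a background of 1.76. It ranked 14 in the whole list by fold. The next in the band, at 322497 to 323094, had a fold of 44.4, and those at 2035083, 1767733 and 2126558 had 29.2, 28.5 and 24.7.

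The end of the long arm, 8q24.3, held 116 peaks in 6.17 Mb, or 18.8 per Mb, 2.18 times inner chromosome 8 (1.78 to 2.64). It differed from 8p23.3 in height. Its median pileup of 52 fragments (45 to 64) was 1.79 times that of inner chromosome 8, and its background of 2.83 (2.04 to 3.30) was 2.0 times. Fold enrichment was 13.3 (1.13 times) and width 618 bp (1.40 times). With peak numbers divided by the median background, the density ratio of 8q24.3 was 1.09, and that of 8p23.3 was 1.74. Peaks at least 1 kb wide numbered 20 of 116 (17.2%), and 86 of 116 (74.1%) were in that top 25% of the list by background. The very end of the arm was not its densest part. From the centromere side, the windows of 1 Mb held 8, 12, 25, 40, 17 and 11 peaks, and the last 0.275 Mb held 3. The background in the same order was 3.30, 1.89, 3.62, 3.30, 1.89, 1.26 and 1.89 fragments. Without the window of 40 peaks the density ratio was 1.70 (1.33 to 2.15).

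The densest 0.75 Mb of 8q24.3 (142750001 to 143500000) held 33 peaks, or 44 per Mb, against 15.3 in the rest of the band. Unlike the dense stretch of 8q24.21, it had a raised background, 3.62 against 2.17 fragments, and taller and wider peaks, with a pileup of 72 against 47 and a width of 818 against 553 bp. The highest fold in the band was at 143340056 to 143340877 (pileup 142, fold 55.6, background 1.57), followed by 143291814 to 143292468 (104, 48.5 and 1.16) and 143269817 to 143270774 (187, 47.5 and 2.96). These 3 lay within 71.1 kb. The third had the highest pileup on chromosome 8. The peaks at 141537070 (46.2) and 142660395 (43.6) followed. Of the 5 widest peaks of the chromosome, 3 were in this band, 2555 bp at 143241484 to 143244038, 2275 bp at 140836721 to 140838995 and 2116 bp at 143300837 to 143302952.

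**Figure D5:**
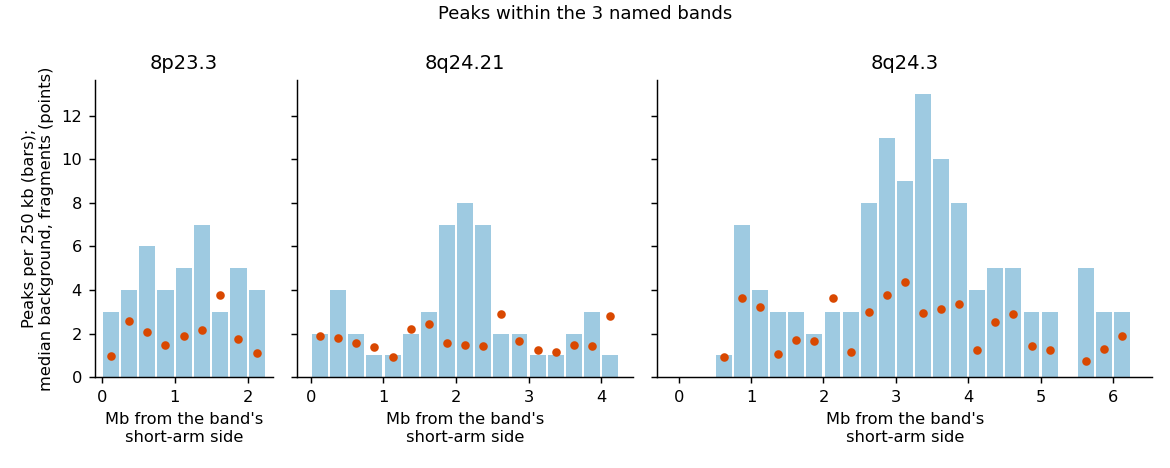
Peaks per bin of 250 kb (bars) and the median background of the peaks in each bin in fragments (points), by distance in Mb from the short-arm side of 8p23.3, 8q24.21 and 8q24.3. Peaks are spread over 8p23.3 and gathered in 1 stretch of 8q24.21 and of 8q24.3, and the background is raised in the stretch of 8q24.3 but not in that of 8q24.21.

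Both ends were set beside the outermost stained bands of the other arms. In density, 8q24.3 ranked 12 and 8p23.3 ranked 13 of 41 such bands, and the 39 on other chromosomes had a median of 15.3 per Mb (lowest 3.64, highest 32.4). In background they ranked 1 and 2, at 2.83 and 1.76 fragments, above all 39 others, which had a median of 1.10 (lowest 0.723, highest 1.57). The interval of 8p23.3, 1.42 to 2.74, includes that highest value, while that of 8q24.3, 2.04 to 3.30, lies above it. In pileup 8q24.3 ranked 1 and 8p23.3 ranked 8, against a median of 29 (lowest 18, highest 41). Their medians of fold enrichment, 13.3 and 10.8, lay within the range of the others (lowest 8.96, highest 15.6), as did their widths of 618 and 500 bp (lowest 404, highest 751). So did their shares of peaks at least 1 kb wide, 17.2% and 19.5%, at ranks 9 and 6. The others had a median share of 12.7% (lowest 0, highest 28.75%). With 41 bands and 1 combined list these ranks are a description.

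Strong peaks made up a larger share on the short arm. The top hundredth of the list by fold enrichment, 1% by construction, included 16 peaks of chromosome 8 (1.21%), of which 10 were among the 453 peaks of 8p (2.21%) and 6 among the 869 of 8q (0.690%). Of those 6, 3 lay in 8q24.3. On 8p, which held 453 of the 1322 peaks, lay 8 of the 10 strongest, from 7 bands. After the peak in 8p23.3 they were at 25627950 to 25628483 in 8p21.2 (pileup 131, fold 62.8, background 1.10), at 42427758 to 42429585 in 8p11.21 (160, 59.0 and 1.73), at 143340056 in 8q24.3 as above, at 134796293 to 134797147 in 8q24.22 (150, 54.7 and 1.76) and at 4355250 to 4355974 in 8p23.2 (122, 54.5 and 1.26). Then came 2 peaks 52.2 kb apart in 8p12, at 37535846 to 37536600 (151, 54.4 and 1.79) and 37482779 to 37483689 (124, 51.8 and 1.42), with those at 21598435 in 8p21.3 (fold 53.9) and 9665899 in 8p23.1 (52.9) ranked between them. The peak in 8p23.1 had a pileup of 185, the second highest of the chromosome, and peaks of 170 at 19767026 in 8p21.3 and 169 at 1767733 in 8p23.3 completed the first 5 with those in 8q24.3 and 8p23.3. Across the 1322 peaks, which are not independent, width rose with fold enrichment (Spearman's rho = 0.558) and with background (rho = 0.499), and pileup with background (rho = 0.596). The last is in part built in. The background is derived from pileup and fold, and no listed fold is below 7.001, so a higher background needs a higher pileup.

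Wide peaks were not more common on chromosome 8. Those of at least 1 kb numbered 63 of 1322 (4.77%), against 5.56% of the list, and 28 of the 63 lay in 8p23.3 and 8q24.3. The widest, 3452 bp, ranked 56 in the list. The pericentromeric bands 8p11.1 and 8q11.1 held 9 peaks in 1.90 Mb, or 4.74 per Mb (2.17 to 8.99). Their widths were 376 to 683 bp and their pileups 12 to 94, with a fold of 40.4 at most. None of the 9 reached 1 kb.

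Peaks on chromosome 8 were as far apart as elsewhere, but fewer stood side by side. The median distance between neighbouring midpoints was 62765 bp, with quartiles of 25366 and 145830 bp, against 62544 bp, with quartiles of 20454 and 159378 bp, on the other chromosomes. Neighbours with a gap of 1 kb or less made up 23 of 1321 pairs (1.74%), against 3.12% elsewhere, 3.97% on X, 3.66% on 10 and 3.25% on 11. Joining them left 1299 peaks. The longest sequenced stretch without a peak was 1.27 Mb in 8q21.3 (88137395 to 89409845), which ranked 16 in the list. The next were 0.876 Mb in 8q11.22 (from 51777079), 0.837 Mb in 8q24.12 (from 121020431), 0.752 Mb in 8q23.3 (from 112550997) and 0.730 Mb in 8q24.13 (from 122373628). All 5 lay on 8q, the sparser arm, which has 99.1 of the 142.7 sequenced Mb. Whether reads can map to all of these stretches was not tested.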

How the data were processed

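The data were 8-oxodG DNA immunoprecipitation libraries of 3 samples from 2 experiments in 1 group. The authors deposited 1 combined peak list with a pileup signal, and, per the file headers, a fold enrichment and p- and q-values (as −log10). The submitters' processing notes name BWA, SAMtools, bedtools and hg18. No source used here gives the caller, its control, the pooling or reads per sample. Fold, p and q had lost their decimal points, which were restored from the Poisson relation between pileup, fold and p. All 1322 rows of chromosome 8, and 23640 of 23641 in all, met it within 0.01 in −log10 p. Of 2000 simulated rows, 100% were restored. They were built from the same relation, so this shows only that the decimal points can be placed if it holds. For q, the largest placement below p was taken.

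Bands came from circlize 0.4.16 and contigs from IRanges 2.36.0 under R 4.3.3. Python 3.11.15, numpy 2.4.6, pandas 2.3.3, scipy 1.17.1 and matplotlib 3.10.9 were used. Peaks were placed by midpoint, and windows of 1 Mb needed 50% sequence. No test was made, because samples are combined and peaks, windows and bands are not replicates. All bands may be named. Named peaks are the 10 of highest fold, the 5 widest and the 5 of highest pileup, and the 5 of highest fold in 8q24.21, 8p23.3 and 8q24.3. Named windows are the 10 of most peaks. Members, lists and rules were chosen with earlier results of these data known. Alternatives were joined peaks, stricter fold or q, summits, other lengths, covered bases, background scaling, other references and other window sizes.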

Additional observations from a re-analysis of the deposited data

How the results depend on the processing

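Of 79 alternatives, 67 stayed within the counting interval of the value reported, 11 moved outside it and 1 reversed. Some of the 67 had little room to move. Counting by summit left every density ratio unchanged, and leaving out the 9 pericentromeric peaks could hardly shift a median. Divided by background, the density ratio of chromosome 8 to the others turned to 0.769, and that of 8q24.3 to inner chromosome 8 moved to 1.09. Against chromosomes without 16, 19 and 20, the ratio of chromosome 8 was 1.22. By covered bases, the ratios were 3.36 for 8p23.3, 3.33 for 8q24.3 and 1.51 for Giemsa-negative to darkest bands. By construction these count wide peaks more. Without the window of most peaks, the ratios were 0.905 for 8q24.21 and 1.70 for 8q24.3. Among peaks of at least the median fold of the list, the medians were a background of 1.57 fragments, a pileup of 48.5 and a width of 520 bp. Pileup is tied to fold by the formula for background, so its rise follows in part from this selection. From 1.5 times the mean, dense windows made up 20.3% of those on chromosome 8, against 16.6% of all. Omissions of single windows, of outermost bands and of chromosomes 16, 19 and 20 were chosen after seeing the data. The cause of these moves was not tested otherwise. No paired analysis was possible because the list has no value per sample, and none could be had with a sample left out. Densities took no account of mappability, and the depth of the libraries is unknown.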
